A study of Mus musculus with 10 samples.

Results

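Mouse pmel-1 T cells that received a mixture of scIL12 mRNA and DRIL18 mRNA (called the mixture here), for IL-12 and for an IL-18 that its decoy does not bind, were compared with electroporated control cells (Mock). The comparison takes all 2 mixture libraries and all 2 Mock libraries of the 10 in the series, chosen by their labels, and covers 15777 expressed genes of 55359 identifiers. All cells were from the spleen of pmel-1 mice, whose CD8 T cells carry a transgenic receptor for the melanoma antigen gp100. They were activated for 48 h with human gp100 and kept for 48 h with human IL-2. Cells of the electroporated groups were then electroporated and taken for RNA after 24 h more. The other electroporated groups received DRIL18 mRNA or scIL-12 mRNA alone (IL12), and cells without electroporation (NoEp, labelled WT) complete the series, with 2 libraries in each group. The labels name no sort of the cells, no age or sex of the mice, and no mRNA for Mock. They call the libraries biological replicates without saying that these came from separate animals, so p-values measure the spread between these samples only.

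IL-12 is a cytokine of antigen-presenting cells that signals through IL12RB1 and IL12RB2, the kinases JAK2 and TYK2, and STAT4. IL-18 signals through IL18R1 and IL18RAP, MYD88 and IRAK kinases to NF-κB and MAP kinases, and a secreted decoy, the IL-18 binding protein, normally neutralises it. In T cells both cytokines together are known for driving production of IFN-γ, the cytokine encoded by Ifng. Each receptor chain, signalling factor and target named below belongs to 1 of 27 gene lists on T cell function and metabolism, to the genes with the largest changes, or to genes chosen by role.

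In the mixture, 5054 genes were higher and 5027 lower than in Mock at an adjusted p under 0.05 (edgeR's quasi-likelihood F test), which is 63.9% of the tested genes, 32.0% higher and 31.9% lower. A passing test is therefore the common state of a gene here, and sizes carry more of the description than calls. At least 2-fold differences were found in 19.8% of genes, 1441 higher (9.13%) and 1682 lower (10.7%), and 23.8% differed by more than 1.5-fold in a test of that size (1778 higher and 1978 lower). The larger fitted steps leaned upward, with 313 genes at least 8-fold higher and 181 at least 8-fold lower. At 64-fold there were 88 against 21. Where either group had 0 counts, the fitted value is set partly by the small count that the fit adds. The numbers of genes at these steps can therefore be too high, and they were not recounted with lower bounds. Gzmg, with 0 Mock counts, was fitted at 171-fold higher, but its lower bound was 14.5-fold. The median absolute fitted log2 fold change over all tested genes was 0.47 between mixture and Mock. Between the mixture libraries the median absolute log2 difference was 0.0946, and between the Mock libraries 0.0877. Those values compare single libraries in log2 levels with a small count added, which draws genes with few counts toward no difference. They are therefore not the same measure as the fitted change. Groups did not overlap for 80.9% of genes. Counts per library lay between 33010930 and 35062545 in these groups, and 20798 to 21358 genes had at least 1 count.

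**Figure D1:**
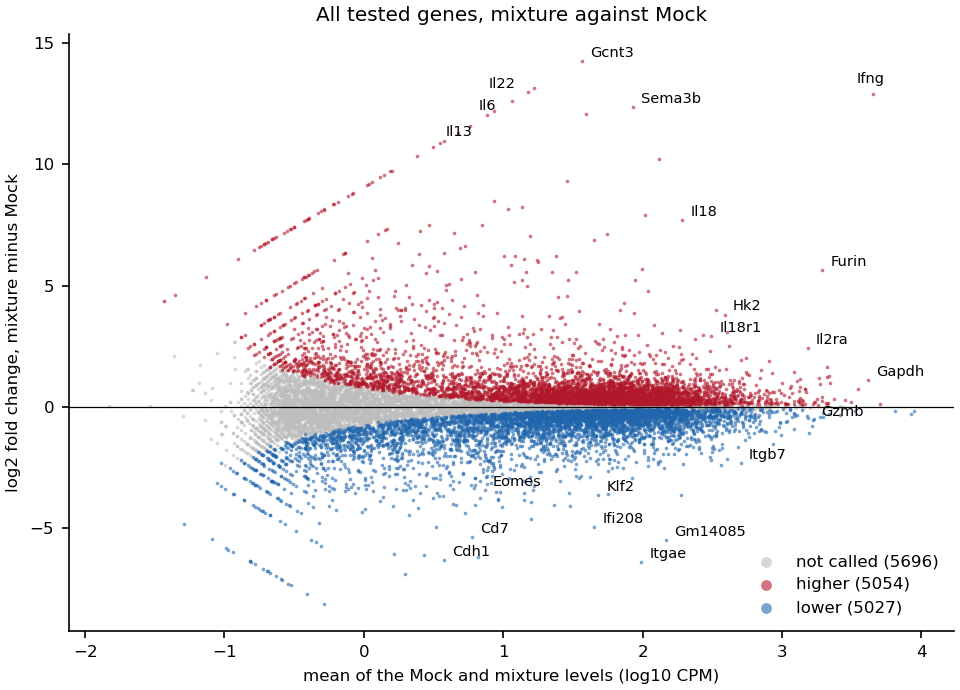
Each point is a tested gene, with the mean of its Mock and mixture levels (log10 CPM, counts per 1e6 counts) on the x axis and its fitted log2 fold change, mixture minus Mock, on the y axis. Ifng stands alone at the upper right, and the rising diagonal of points at the top left holds genes with 0 Mock counts, for which the fitted value is set partly by the small count that the fit adds.

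As a check of the labels, Il18 had 65 and 62 raw counts in Mock and 13787 and 12158 in the mixture (log2 fold change 7.69 ± 0.08 SE, adjusted p = 1.11e-34). Reads from the delivered mRNA and from the cells' own Il18 cannot be told apart in gene counts. Il12a had 3 and 4 counts in Mock and 7 and 3 in the mixture, and Il12b had 0 in all of these libraries, so these genes give no check of the scIL12 mRNA.

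Ifng changed most by number of reads. Its level was 0.906 and 1.43 CPM in the Mock libraries and 8882 and 9109 CPM in the mixture (log2 fold change 12.92 ± 0.08 SE, adjusted p = 7.6e-41). Ifng alone made up 0.868% and 0.892% of all counts in the mixture libraries. With a single mRNA the level was far lower, at 17.5 and 17.2 CPM with DRIL18 and at 210 and 189 CPM with IL12. The mixture exceeded IL12 by 5.50 on the log2 scale (adjusted p = 5.54e-36) and DRIL18 by 9.02 (adjusted p = 1.1e-39). As background to such comparisons, 52.2% of all tested genes differed between mixture and IL12 and 57.3% between mixture and DRIL18.

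To show the DNA in front of genes with large changes in either direction, promoter windows were read from RefSeq (build GRCm38.p6, the 250 bases before the annotated start), which is not the build of the counts. Those of 5 genes are printed 5′ to 3′ on the gene's strand: Ifng (chr10:118440796-118441045, plus strand), Il6 (chr5:30012864-30013113, plus), Cxcl10 (chr5:92348890-92349139, minus), Nfkbia (chr12:55492648-55492897, minus) and Ifi208 (chr1:173673415-173673664, plus). Ifng, Il6, Cxcl10 and Nfkbia rose and Ifi208 fell. Capitals mark matches on either strand to GAS (TTCNNNGAA, a STAT motif), ISRE (GAAA, any 2 bases, then GAAA, an interferon-stimulated response element), AP-1 (TGANTCA) or the kappaB motif of NF-κB factors.
Ifng: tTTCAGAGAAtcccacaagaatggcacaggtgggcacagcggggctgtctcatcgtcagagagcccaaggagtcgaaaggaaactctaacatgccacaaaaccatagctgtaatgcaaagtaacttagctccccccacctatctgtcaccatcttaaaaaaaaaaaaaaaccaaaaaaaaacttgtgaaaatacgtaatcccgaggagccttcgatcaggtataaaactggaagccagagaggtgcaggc
Il6: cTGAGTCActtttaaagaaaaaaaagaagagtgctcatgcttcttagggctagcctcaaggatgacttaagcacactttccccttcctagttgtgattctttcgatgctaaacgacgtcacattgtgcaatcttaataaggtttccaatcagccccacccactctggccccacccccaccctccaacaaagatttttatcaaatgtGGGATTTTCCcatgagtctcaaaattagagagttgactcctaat
Cxcl10: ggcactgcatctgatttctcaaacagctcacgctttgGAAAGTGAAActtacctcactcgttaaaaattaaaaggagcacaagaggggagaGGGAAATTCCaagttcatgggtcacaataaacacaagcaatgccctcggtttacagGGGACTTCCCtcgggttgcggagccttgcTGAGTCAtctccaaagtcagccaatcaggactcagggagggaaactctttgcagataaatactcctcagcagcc
Nfkbia: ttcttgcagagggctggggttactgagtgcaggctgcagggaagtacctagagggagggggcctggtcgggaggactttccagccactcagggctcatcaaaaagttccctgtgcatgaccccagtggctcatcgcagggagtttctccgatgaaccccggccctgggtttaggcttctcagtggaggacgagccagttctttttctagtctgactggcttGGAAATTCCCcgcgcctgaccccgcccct
Ifi208: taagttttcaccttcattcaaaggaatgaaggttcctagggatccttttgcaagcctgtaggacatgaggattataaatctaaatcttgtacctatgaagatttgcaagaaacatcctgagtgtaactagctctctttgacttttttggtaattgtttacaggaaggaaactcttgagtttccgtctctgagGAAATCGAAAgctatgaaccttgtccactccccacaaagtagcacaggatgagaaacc
The printed Ifng window holds 1 GAS match, at its far end, and the Cxcl10 window holds an ISRE, an AP-1 and 2 kappaB matches. The Il6 window has an AP-1 match at its far end and a kappaB match 44 bases before the start, and the Nfkbia window a kappaB match 29 bases before it. In the Ifi208 window an ISRE match lies 58 bases before the start.

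Over all genes these motifs were spread as follows. Promoters could be matched for 10362 of 15698 tested symbols, of which 927 belonged to genes at least 2-fold higher and 1044 to genes at least 2-fold lower. A kappaB match stood in 5.61% of the windows of higher genes, 5.27% of those of lower genes, 4.06% of other tested genes and 3.75% of all 27018 windows. The GAS motif stood in 7.55%, 4.79%, 6.09% and 7.18% of the same sets, and AP-1 in 7.87%, 5.65%, 3.87% and 6.87%. ISRE stood in 2.91% of higher, 4.31% of lower, 2.51% of other tested and 3.04% of all windows, and the T-box motif GGTGTGA in 2.91%, 4.02%, 2.79% and 3.31%. Both strands were searched, kappaB matches may overlap other motifs, and a match in a window is a description of its letters only.

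Of 27 receptor and signalling genes of the IL-12 and IL-18 pathways, all tested, 16 were higher, 8 lower and 3 did not pass. Their median log2 fold change was 0.63, against -0.00209 over all tested genes. For this list and each list below, the background is the 63.9% of all tested genes that were called, 32.0% higher and 31.9% lower. The IL-18 receptor chains rose. Il18r1, the ligand-binding chain, was at 73.6 and 72.0 CPM in Mock and 548 and 554 CPM in the mixture (2.92 ± 0.04, adjusted p = 1.8e-30), and Il18rap, the accessory chain, at 80.8 and 79.5 against 316 and 307 CPM (1.96 ± 0.05, adjusted p = 4.01e-25). Groups did not overlap for either, yet both stood below IL12 alone, where Il18r1 reached 814 and 841 CPM (mixture minus IL12 -0.59, adjusted p = 5.95e-14) and Il18rap 419 and 429 CPM (-0.45, adjusted p = 5.56e-10). Il12rb2, the inducible IL-12 receptor chain, rose from 92.5 and 85.8 to 254 and 255 CPM (1.51 ± 0.04, adjusted p = 1.34e-23) and did not pass against IL12 (-0.09, adjusted p = 0.0754). Il12rb1, the chain shared with the IL-23 receptor, was at 143 and 146 CPM in Mock and at 143 and 142 CPM in the mixture and did not pass (-0.02 ± 0.04, adjusted p = 0.712).

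Inside the cell, the growth arrest and MAP kinase activator genes Gadd45g (23.2 and 19.9 to 210 and 231 CPM, 3.35) and Gadd45b (7.67 and 8.86 to 56.3 and 59.7 CPM, 2.81) rose. Irak3, an inhibitor of IL-18 and toll-like receptor signalling, rose from 1.70 and 1.93 to 10.5 and 11.6 CPM (2.60). Gadd45a, a stress-induced relative, fell from 1.16 and 1.13 to 0.409 and 0.623 CPM (-1.15, adjusted p = 0.0102), a call that was lost without mixture replicate 1 (-0.87, adjusted p = 0.1105). Among genes named for their place in the pathway after their values were seen, the adaptor Myd88 rose by 0.86, Stat3 by 0.63 and the survival kinase Pim2 by 2.31. The IL-12 signal transducer Stat4 fell from 102 and 96.3 to 71.1 and 71.6 CPM (-0.47) and Jak1 from 732 and 712 to 379 and 370 CPM (-0.95). Both IFN-γ receptor genes fell. Ifngr1 went from 296 and 305 to 161 and 151 CPM (-0.95 ± 0.04, adjusted p = 1.31e-19). Ifngr2 went from 14.01 and 14.1 to 3.68 and 4.54 CPM (-1.77 ± 0.12, adjusted p = 1.83e-14), which was above the 1.44 and 1.32 CPM of IL12 (1.57, adjusted p = 4.79e-09). Il2ra, the high-affinity IL-2 receptor chain, rose from 479 and 477 to 2506 and 2655 CPM (2.43 ± 0.04, adjusted p = 2.02e-29), just above its level with IL12 (mixture minus IL12 0.18, adjusted p = 0.00026).

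Cytokine feedback genes moved in both directions, 10 of 21 higher, 7 lower and 4 not called, with a median of 0.25. Genes of the IκB family, regulators of NF-κB, were among those that rose: Nfkbiz, an atypical IκB, from 15.5 and 15.0 to 114 and 118 CPM (2.93), and Nfkbia, which encodes the inhibitor IκBα, from 44.5 and 43.0 to 227 and 221 CPM (2.36). Zc3h12a, an RNase that degrades cytokine mRNAs, rose by 2.39 and the MAP kinase phosphatase gene Dusp4 by 1.74. Socs2, a suppressor of cytokine signalling, fell from 61.6 and 66.7 to 28.4 and 28.1 CPM (-1.18). In the list of NF-κB subunits and targets, 25 of 28 were higher, 1 was lower and 2 did not pass, with a median of 1.31, the highest of the 27 lists. The costimulatory receptor gene Tnfrsf9 (3.16), the activation marker Cd83 (1.25 and 1.28 to 11.9 and 10.2 CPM, 3.12) and Cd40 (3.01, at 0.847 and 1.30 CPM in the mixture) led it. Of the subunits themselves, chosen after their values were seen, Nfkb2 rose by 1.91 and Relb by 1.74, whereas Nfkb1 stood at 583 and 576 CPM in Mock and 562 and 551 CPM in the mixture (-0.06, adjusted p = 0.144). That result depends on the scaling: with library totals alone Nfkb1 was called lower (-0.12, adjusted p = 0.00312), and 2 genes of the list were lower. The only gene lower in the main fit, Nfkbid (-0.14, adjusted p = 0.0334), lost its call in 6 of the alternatives. These include the fits without Mock replicate 2 (-0.0994), without mixture replicate 1 (-0.125) and without mixture replicate 2 (-0.156).

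**Figure D2:**
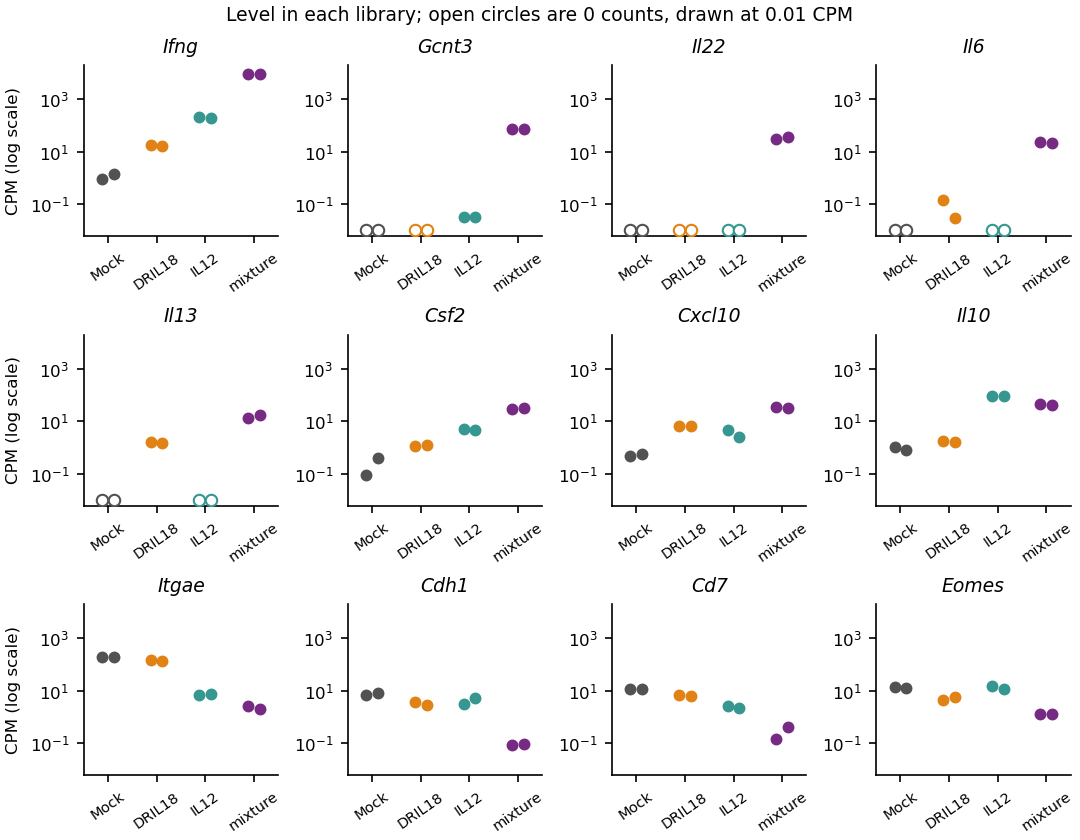
Level (CPM, log axis) of 12 genes in each library, 2 points per group, for Mock, DRIL18, IL12 and mixture. Ifng, Gcnt3, Il22, Il6, Il13, Csf2 and Cxcl10 were highest in the mixture, Il10 was highest with IL12, and the 4 genes of the bottom row were lowest in the mixture.

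Of 30 secreted cytokine genes, 24 were tested, of which 19 were higher, 3 lower and 2 not called, with a median of 0.85 (the same with genes at 0 Mock counts set to their lower bounds). Il22, a cytokine that acts on epithelia, had 0 counts in both Mock libraries and 31.2 and 35.2 CPM in the mixture, at least 763-fold higher when 3 counts are set for the Mock group. It had 0 counts in the other 6 libraries as well. Its near-identical copy Iltifb had 3 and 8 counts in the mixture and 0 elsewhere, so reads of the pair are uncertain. Il6, an inflammatory cytokine, went from 0 and 0 to 23.6 and 22.5 CPM (at least 530-fold higher), was at 0 with IL12, and was at 0.144 and 0.0295 CPM with DRIL18. Il13, a type 2 cytokine, went from 0 and 0 to 13.4 and 17.4 CPM (at least 353-fold higher), was at 0 with IL12, and had 1.67 and 1.44 CPM with DRIL18 (mixture minus DRIL18 3.30, adjusted p = 6.38e-15). All 3 were far lower with either single mRNA than in the mixture, and with DRIL18 only Il13 stood above 1 CPM.

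Csf2, which encodes GM-CSF, rose from 0.0849 and 0.387 to 29.8 and 31.5 CPM (7.02 ± 0.21, adjusted p = 2.96e-23), above IL12 by 2.67 and DRIL18 by 4.69. Il10, an anti-inflammatory cytokine, behaved otherwise: it rose from 1.08 and 0.803 to 45.0 and 42.8 CPM (5.54 ± 0.13, adjusted p = 4.09e-26) but stood below the 92.9 and 89.4 CPM of IL12 (-1.05, adjusted p = 1.74e-14). Tnf moved little, from 30 and 27.7 to 45.3 and 41.9 CPM (0.59 ± 0.07, adjusted p = 3.7e-09). Il2 had 1 and 6 counts in Mock and 4 and 4 in the mixture and was too low to test. Of other cytokines, named after their values were seen, Il24 rose from 0.962 and 0.863 to 28.2 and 29.7 CPM (4.98), Tnfsf4, the ligand of OX40, by 3.70 and Lif by 2.04, and Il21 went from 0 to 0.876 and 1.01 CPM (at least 21.6-fold higher). The death ligand gene Tnfsf10 fell from 44.5 and 44.7 to 10.9 and 12.6 CPM (-1.92).

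Of 14 chemokine genes, 10 were tested, with 6 higher, 2 lower, 2 not called and a median of 1.16. Cxcl10, an IFN-γ-induced attractant of T cells, rose from 0.453 and 0.565 to 35.9 and 32.9 CPM (6.07 ± 0.19, adjusted p = 1.72e-22). Its relatives stayed low: Cxcl11 had 1 Mock count and 0.934 and 0.534 CPM in the mixture (ratio 50.7, 95% counting interval 8.69 to 2043), and Cxcl9 reached only 0.292 and 0.385 CPM (2.47, adjusted p = 0.0182). The Cxcl9 call was lost in 4 alternatives, among them without Mock replicate 2 (1.55, adjusted p = 0.205) and without mixture replicate 2 (2.26, adjusted p = 0.102). Ccl3, an inflammatory chemokine, rose from 0.849 and 0.535 to 3.09 and 4.48 CPM (2.44), whereas Ccl5 fell from 18.8 and 18.2 to 4.38 and 4.003 CPM (-2.14). Of 20 chemokine and lipid receptor genes, 17 were tested, 8 higher, 6 lower and 3 not called, with a median of 0.19. Cxcr1, a receptor for neutrophil-attracting chemokines, had 2 counts in Mock and 5.63 and 6.11 CPM in the mixture (ratio 202, interval 55.7 to 1677). S1pr1, the receptor by which T cells leave lymphoid organs, fell from 152 and 144 to 30.7 and 31.0 CPM (-2.26), and Cx3cr1 fell at very low levels (-2.19, adjusted p = 0.0137). The Cx3cr1 call was lost with DESeq2, without Mock replicate 1 (-1.96, adjusted p = 0.0874) and without mixture replicate 2 (-1.54, adjusted p = 0.158). Ccr3, an eosinophil and type 2 receptor gene, rose from 0 and 0.119 to 1.11 and 0.830 CPM (3.98), a call lost with the column mark "bis", which both mixture columns and neither Mock column carry, as a term (2.47, adjusted p = 0.193). With that term, 5 of the receptor genes were called higher, against 8, and 1 of the chemokine genes lower, against 2. Cxcr3, the receptor of Cxcl10, chosen after its values were seen, fell from 259 and 261 to 83.5 and 77.8 CPM (-1.69).

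Genes outside these families also had 2 counts or fewer in Mock and above 10 CPM in the mixture. Gcnt3, an enzyme that branches mucin-type glycans, had 0 counts in Mock and DRIL18, 0.0327 and 0.0315 CPM with IL12 and 72.6 and 73.6 CPM in the mixture (at least 1680-fold higher than Mock). Sema3b, a secreted semaphorin, had 2 Mock counts and 168 and 171 CPM in the mixture (ratio 5846, interval 1618 to 48278). Pdzk1ip1, a small membrane protein, had 1 Mock count and 77.8 and 78.1 CPM in the mixture (ratio 5376, interval 964 to 212373). Fam107a, which encodes an actin-associated protein, went from 0 to 16.3 and 18.2 CPM (at least 397-fold higher). Mylk2, a myosin light chain kinase, went from 0 to 12.4 and 10.6 CPM (at least 264-fold higher). Neither single mRNA brought Fam107a, Pdzk1ip1 or Mylk2 above 0.737 CPM in any library, and Sema3b reached 1.40 and 1.79 CPM with IL12. The predicted gene Gm44851 differed from these: it had 0 Mock counts and 30.4 and 29.9 CPM in the mixture (at least 693-fold higher), but already 17.3 and 19.1 CPM with IL12 alone (mixture minus IL12 0.73). In all, 27 genes had 0 Mock counts and a mean of at least 1 CPM in the mixture, and 1 gene showed the reverse.

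The largest falls were of several kinds of gene. Itgae, which encodes CD103, the integrin chain that binds E-cadherin, fell from 194 and 191 to 2.57 and 2.02 CPM (-6.39 ± 0.07, adjusted p = 1.7e-33). Cdh1, E-cadherin itself, fell from 6.91 and 7.85 to 0.0876 and 0.0890 CPM (-6.33 ± 0.35, adjusted p = 2.95e-16). Itgae was already low with IL12, at 7.09 and 7.52 CPM (mixture minus IL12 -1.67, adjusted p = 8.48e-13), whereas Cdh1 kept 3.07 and 5.06 CPM there (-5.47, adjusted p = 3.35e-13). Cd7, a T and NK cell surface protein, fell from 11.8 and 11.6 to 0.146 and 0.415 CPM (-5.37), and Rgs10, a regulator of G protein signalling, from 31.4 and 29.1 to 1.08 and 1.33 CPM (-4.65). The potassium channel gene Kcna2 (-4.94), the urea transporter gene Slc14a1 (-4.38) and the predicted gene Gm14085 (283 and 289 to 7.15 and 5.49 CPM, -5.50) fell too. All of these were lower in the mixture than with either single mRNA, and 2 further predicted gene models met the same rule for naming.

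Adhesion genes fell as a group beyond Itgae, 13 of 20 tested lower, 2 higher and 5 not called, of 22 listed, with a median of -0.78. Itgb7, the partner chain of Itgae and Itga4, fell from 835 and 847 to 165 and 170 CPM (-2.33 ± 0.04, adjusted p = 8.65e-30). Itgax (3.88 and 4.55 to 0.204 and 0.385 CPM, -3.82) and Itga1 (3.79 and 3.57 to 0.409 and 0.267 CPM, -3.43), other integrin chains, fell at low levels. Icam1, the ligand of the integrin LFA-1, rose instead, from 42.9 and 43.2 to 184 and 185 CPM (2.10).

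**Figure D3:**
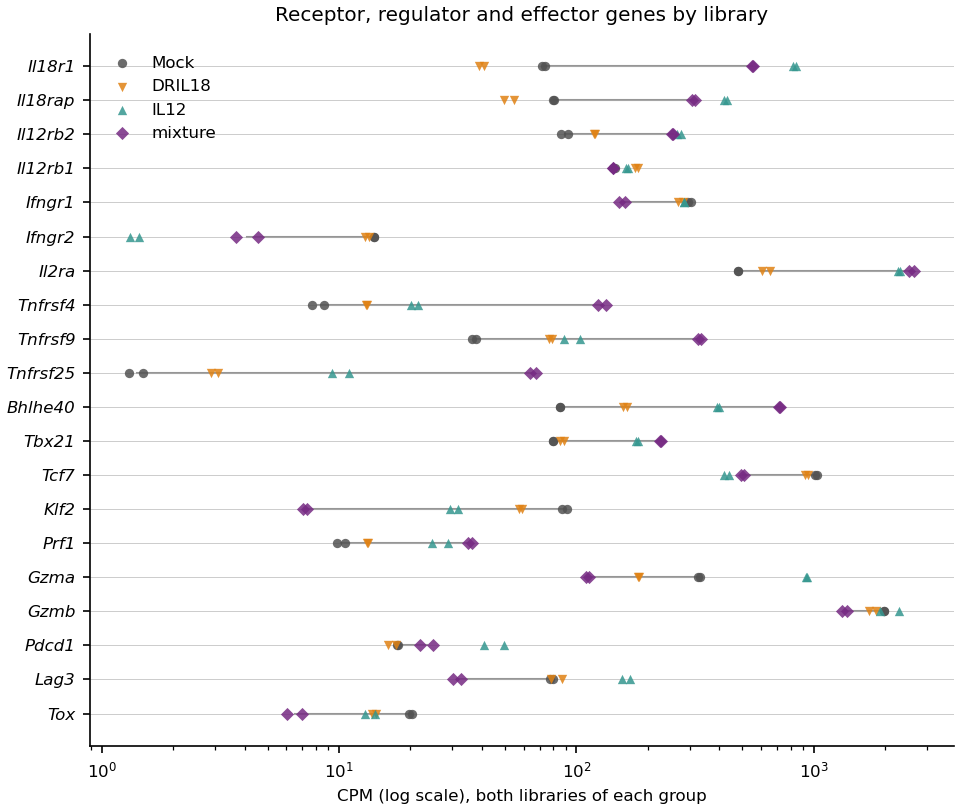
Levels (CPM, log axis) of 20 receptor, regulator and effector genes, with 2 symbols per group and a grey line joining the Mock and mixture means. Tnfrsf4, Tnfrsf9, Tnfrsf25 and Bhlhe40 were highest in the mixture, Klf2 and Tox were lowest there, and Gzma, Pdcd1 and Lag3 were highest with IL12.

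Of 20 costimulatory receptor genes, 13 were higher, 7 lower and 0 not called (median 0.89). Tnfrsf25, which encodes DR3, rose from 1.5 and 1.31 to 63.6 and 67.4 CPM (5.54 ± 0.12, adjusted p = 6e-27). Tnfrsf4, which encodes OX40, rose from 7.67 and 8.69 to 124 and 133 CPM (3.97 ± 0.07, adjusted p = 9.96e-29), and Tnfrsf9, which encodes CD137, from 36.4 and 37.7 to 326 and 335 CPM (3.16). Tnfrsf8, which encodes CD30, rose from 20.6 and 21.8 to 157 and 169 CPM (2.94). Cd27, a receptor of resting and memory T cells, fell from 240 and 241 to 61.3 and 63.0 CPM (-1.95), so members of this family moved in opposite directions.

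Inhibitory receptors and factors associated with exhaustion split, 10 of 22 higher, 11 lower and 1 not called, with a median of 0.10. Pdcd1, which encodes PD-1, rose from 17.6 and 17.6 to 24.9 and 22.03 CPM (0.41 ± 0.09, adjusted p = 0.00014) and stood below the 40.9 and 49.8 CPM of IL12 (-0.95, adjusted p = 1.63e-11). Lag3 fell from 77.4 and 79.8 to 32.5 and 30.1 CPM (-1.33 ± 0.06, adjusted p = 3.51e-19), where IL12 had 156 and 168 CPM (-2.37, adjusted p = 1.64e-25). Tox, a transcription factor of exhausted cells, fell from 19.8 and 20.3 to 7.01 and 6.05 CPM (-1.62). Havcr2, which encodes TIM-3, rose from 8.46 and 8.09 to 18.2 and 19.8 CPM (1.20), above IL12 (0.47, adjusted p = 7.63e-05) and DRIL18 (0.85, adjusted p = 4.2e-09). Pdcd1lg2, a PD-1 ligand gene, rose from 3.23 and 2.68 to 25.2 and 24.0 CPM (3.06), while Tox2 (3 Mock counts, ratio 21.98, interval 7.19 to 109) and Klrg1 (3.44) stayed under 1 CPM. Cd244a, which encodes the receptor 2B4, fell from 6.85 and 8.21 to 0.847 and 0.741 CPM (-3.24). Named after their values were seen, Btla rose by 2.34 and Cd274, the other PD-1 ligand gene, by 1.30.

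Cytotoxic genes moved apart from each other, 11 of 24 tested higher, 8 lower and 5 not called, of 25 listed, with a median of 0.02. Prf1, which encodes perforin, rose from 9.79 and 10.6 to 34.9 and 36.4 CPM (1.81 ± 0.09, adjusted p = 4.05e-18), above both IL12 (0.41) and DRIL18 (1.44). The main granzymes fell, Gzmb from 1970 and 1983 to 1320 and 1379 CPM (-0.55 ± 0.05, adjusted p = 6.51e-11) and Gzma from 333 and 327 to 113 and 110 CPM (-1.57). Gzmb was below both IL12 (-0.64, adjusted p = 4.93e-12) and DRIL18 (-0.39, adjusted p = 1.08e-07). The granzymes Gzmd (3.07), Gzme (2.37) and Gzmg (at least 14.5-fold higher) rose but stayed under 3 CPM, and reads of these similar genes are hard to assign. Serpinb9b, a granzyme inhibitor, had 3 Mock counts (ratio 16.9, interval 5.46 to 84.7). Among 12 tested killer lectin and NK receptor genes, of 18 listed, 5 were higher, 5 lower and 2 not called (median 0.02). Klrc1, which encodes NKG2A, rose from 5.26 and 5.41 to 27.7 and 27.8 CPM (2.38), and the adaptor gene Tyrobp fell to 3 counts over both mixture libraries (Mock 11.2 times as high, interval 3.51 to 56.9).

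Effector transcription factor genes were mostly higher, 16 of 24, with 7 lower and 1 not called (median 0.49). Bhlhe40, which sustains cytokine production, rose from 85.5 and 85.4 to 715 and 721 CPM (3.07 ± 0.04, adjusted p = 9.05e-33). Zeb2, a driver of terminal effector cells, rose from 2.58 and 2.83 to 25.02 and 25.5 CPM (3.23), and Hlx from 0.113 and 0.149 to 1.26 and 1.13 CPM (3.15). Hlx stood below the 6.21 and 5.03 CPM of IL12 (mixture minus IL12 -2.23, adjusted p = 6.98e-09). Tbx21, which encodes T-bet, rose from 79.5 and 80.0 to 228 and 226 CPM (1.51 ± 0.04, adjusted p = 1.93e-24), above IL12 by 0.34. Eomes, its relative, fell from 13.7 and 13.2 to 1.26 and 1.25 CPM (-3.43 ± 0.17, adjusted p = 2.65e-17), below IL12 (mixture minus IL12 -3.40). Further rises, named after their values were seen, were in Zbtb32 (2.78), Batf3 (2.63), Irf8 (1.97) and Prdm1, which encodes BLIMP-1 (1.49).

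Genes of quiescent and memory T cells fell, 20 of 28 lower, 7 higher and 1 not called, with the lowest median of the 27 lists, -0.96. Klf2, which maintains quiescence and trafficking genes, fell from 86.8 and 91.7 to 7.36 and 7.06 CPM (-3.63 ± 0.07, adjusted p = 1.21e-27). The IL-6 receptor gene Il6ra fell from 6.31 and 5.98 to 0.584 and 0.445 CPM (-3.57), Pik3ip1, an inhibitor of PI3K, from 46.5 and 44.8 to 5.69 and 5.31 CPM (-3.05), and Klf3 from 39.7 and 42.6 to 6.28 and 6.76 CPM (-2.66). Tcf7, which encodes TCF-1, fell from 1031 and 1013 to 493 and 509 CPM (-1.03 ± 0.04, adjusted p = 2.37e-21), slightly above its level with IL12 (0.22, adjusted p = 3.87e-06). Satb1, a chromatin organiser, rose from 328 and 333 to 817 and 831 CPM (1.32). The IL-7 receptor gene Il7r (-0.98) and Ccr7 (-0.67) fell as well, both named after their values were seen.

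T cell receptor and proximal signalling genes fell nearly throughout, 20 of 24 lower and 4 higher, with a median of -0.47. The signalling enzymes Plcg1 (280 and 286 to 98.7 and 94.5 CPM, -1.55) and Rasgrp1 (361 and 369 to 140 and 138 CPM, -1.39), the transcription factor gene Nfatc1 (-1.10) and the receptor chain Cd3g (463 and 444 to 225 and 209 CPM, -1.06) fell most. Ptpn6, the inhibitory phosphatase SHP-1, rose by 0.27. Cd8a, a chain of the CD8 coreceptor, moved from 919 and 903 to 797 and 777 CPM (-0.21 ± 0.03, adjusted p = 3.15e-06), and Cd3e, chosen afterwards, fell by 0.58. In bulk RNA, fewer cells of a type and less RNA per cell cannot be told apart. The CD8 T cell marker list, with all 7 genes lower, summed to 3368 and 3346 CPM in Mock and to 2337 and 2330 CPM in the mixture.

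Markers of other cells moved too. Gamma-delta T cell genes were lower for 4 of 5 tested (6 listed, median -1.80), and their sum went from 123 and 126 to 46.9 and 47.6 CPM, with the receptor constant gene Trdc at -1.80. B cell genes were higher for 6 of 10, lower for 3 and not called for 1 (median 0.85), with Igkc at 1.14 and Ighm at -0.33, and their sum went from 698 and 701 to 586 and 574 CPM. CD4 and regulatory T cell genes had 1 of 6 higher, 3 lower and 2 not called (median -0.05), with sums of 231 and 237 CPM in Mock and 205 and 212 CPM in the mixture, and Foxp3 fell from 1.10 and 0.952 to 0.0292 and 0.178 CPM. Macrophage markers summed to 6.54 and 6.81 CPM in Mock and 7.59 and 6.97 CPM in the mixture, with C1qa and C1qb at 0 counts in both groups, and 2 of 10 were tested, Cd68 higher and Lyz2 lower. The call of Cd68 was lost in 9 alternatives, and that of Lyz2 in 1, without Mock replicate 1. Of 6 NK cell markers only Txk was tested (-0.61, lower), and the list summed to 33.3 and 30.02 CPM in Mock and 21.5 and 20.3 CPM in the mixture, with Klrb1c and Klra4 at 0 in the mixture. Dendritic cell markers summed to 8.86 and 9.31 CPM in Mock and 10.6 and 10.3 CPM in the mixture, with Clec9a and Siglech at 0 in both groups, and of 8 listed, 3 were tested, 2 higher and 1 lower. Of 8 neutrophil markers 0 were tested, and their sum stayed at 0.119 CPM or less in these libraries. Erythroid markers stayed under 1 CPM, with Hba-a1 and Hba-a2 at 0 in both groups, and 1 of 6 was tested, Alas2, whose higher call was lost in 6 alternatives. Foxp3, Trdc, Igkc and Ighm were named after their values were seen, and the part of other cells in any difference above was not tested.

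Interferon genes did not move together, although Ifng rose. Of 34 genes of the IFN-γ pathway and response, 33 were tested, 15 higher, 16 lower and 2 not called, with a median of -0.05. Besides Cxcl10 and Cxcl11, the nitric oxide synthase gene Nos2 (3.08, under 1 CPM) and the serpin gene Serpina3f (1.22 and 1.37 to 9.58 and 7.92 CPM, 2.76) rose. Serpina3f stood below the 29.2 and 30.2 CPM of DRIL18 (mixture minus DRIL18 -1.76, adjusted p = 2.07e-15). The guanylate-binding proteins, a family of interferon-induced GTPases, went both ways: Gbp2 rose from 218 and 220 to 907 and 860 CPM (2.01) and Gbp6 fell from 78.5 and 78.7 to 25.2 and 22.9 CPM (-1.71), both named after their values were seen. Type I interferon-stimulated genes were mostly lower, 28 of 40 tested (41 listed), with 5 higher and 7 not called (median -0.73). Ifi208, a PYHIN family gene whose promoter is shown above, fell from 88.3 and 85.2 to 2.60 and 2.94 CPM (-4.97 ± 0.08, adjusted p = 9.22e-30). The receptor transporter gene Rtp4 fell from 8.29 and 8.15 to 0.292 and 0.741 CPM (-3.99) and the nucleotide kinase gene Cmpk2 from 18.3 and 15.8 to 1.61 and 0.860 CPM (-3.78). Irf7, the regulator of type I interferon responses, fell from 31.4 and 30.9 to 4.90 and 4.83 CPM (-2.68, named after its value was seen). Ifi44 rose from 3 Mock counts (ratio 13.9, interval 4.42 to 70.0). At 0.613 and 0.593 CPM in the mixture, it stood below the 4.93 and 3.995 CPM of IL12 (mixture minus IL12 -2.88, adjusted p = 3.56e-08).

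Of 25 antigen presentation genes, 8 were higher, 14 lower and 3 not called (median -0.21). Several MHC class II genes rose: Cd74, the invariant chain, from 16.6 and 15.9 to 92.0 and 87.0 CPM (2.46), H2-Eb1 by 1.67, H2-Ab1 by 1.57 and their transactivator Ciita from 1.02 and 1.22 to 2.48 and 3.44 CPM (1.40). With DRIL18 alone Cd74 was already at 79.9 and 80.3 CPM. Ciita was at 4.33 and 3.74 CPM there and did not pass (mixture minus DRIL18 -0.45, adjusted p = 0.0744). H2-DMa, a class II peptide exchange gene, fell from 42.0 and 44.8 to 18.5 and 18.1 CPM (-1.24). The class I heavy chain genes H2-K1 (2252 and 2251 to 1721 and 1692 CPM, -0.40) and H2-D1 (-0.42), named after their values were seen, fell slightly.

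**Figure D4:**
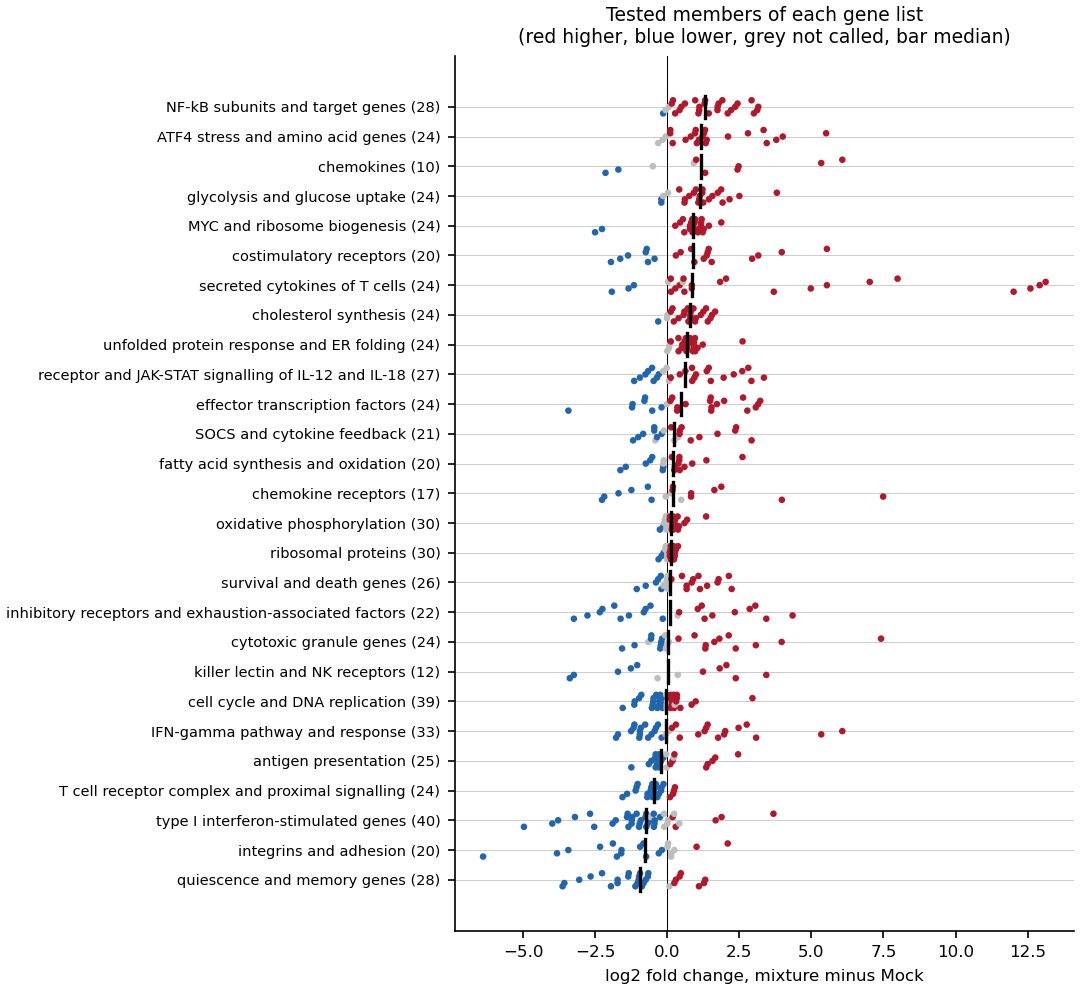
Fitted log2 fold change, mixture minus Mock, of every tested member of the 27 gene lists (number tested in brackets), ordered by their medians. Medians run from -0.96 for quiescence and memory genes to 1.31 for NF-κB genes, and several lists in the middle hold large changes in both directions.

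Glycolysis genes rose, 20 of 24, with 2 lower and 2 not called (median 1.12). Hk2, the inducible hexokinase, rose from 51.9 and 51.8 to 731 and 714 CPM (3.80 ± 0.05, adjusted p = 7.31e-33). The lactate exporter gene Slc16a3 rose from 46.9 and 53.0 to 272 and 293 CPM (2.50), the glucose transporter gene Slc2a1 from 67.6 and 70.2 to 302 and 315 CPM (2.16) and the hypoxia factor gene Hif1a from 209 and 214 to 785 and 815 CPM (1.92). Hk1, the constitutive hexokinase, fell by 0.20. Of 30 oxidative phosphorylation genes, 17 were higher, 2 lower and 11 not called, with a median of only 0.13. The share called, 63.3%, was near the 63.9% of all tested genes, with 56.7% higher and 6.67% lower. The rises were led by the cytochrome c gene Cycs (71.4 and 70.1 to 188 and 173 CPM, 1.35), Atp5g1 (0.69), Atp5b (0.60) and Uqcrc2 (0.41), with Cox5b at -0.26. Without Mock replicate 2, and without mixture replicate 1, 1 gene of this list was lower.

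Cholesterol synthesis genes rose, 21 of 24 tested (25 listed), with 1 lower and 2 not called (median 0.80). Fdps (1.70 and 2.41 to 6.66 and 6.32 CPM, 1.66), Msmo1 (1.55), Hsd17b7 (1.5) and Cyp51 (74.3 and 76.4 to 198 and 202 CPM, 1.41), enzymes of the pathway, led it. Ebp, an isomerase of the pathway, fell by 0.31. Of 20 fatty acid genes 11 were higher, 7 lower and 2 not called (median 0.20). The desaturase genes Scd1 (13.0 and 14.3 to 81.1 and 85.4 CPM, 2.61) and Fads2 (1.36) rose. Cpt1a, the gate to mitochondrial fatty acid oxidation, fell from 77.8 and 79.2 to 28.5 and 29.5 CPM (-1.44), and Acacb fell by 1.62.

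Stress and biosynthesis genes rose in 3 lists. ATF4 stress and amino acid genes were higher for 21 of 24 and lower for 0, with 3 not called (median 1.16). Cth, which makes cysteine, rose from 0.0849 and 0.149 to 5.75 and 5.16 CPM (5.51), and the stress regulator Nupr1 (4.01), the cystine transporter gene Slc7a11 (0.170 and 0.178 to 2.28 and 2.61 CPM, 3.78) and the folate enzyme gene Aldh1l2 (3.45) rose at low levels. Atf4 itself rose from 145 and 142 to 362 and 383 CPM (1.37) and the asparagine synthetase gene Asns by 2.11, both named after their values were seen. Genes of the unfolded protein response were higher for 21 of 24, lower for 0 and not called for 3 (median 0.70). The sensor gene Ern1 rose from 12.5 and 13.9 to 78.3 and 82.8 CPM (2.61), and the chaperone genes Hyou1 (1.23), Manf (1.05) and Hspa5 (671 and 675 to 1340 and 1294 CPM, 0.97) followed. MYC and ribosome biogenesis genes were higher for 22 of 24 and lower for 2 (median 0.91). Odc1, the first enzyme of polyamine synthesis, rose by 1.45, Npm1, a nucleolar chaperone, from 1132 and 1128 to 2513 and 2597 CPM (1.18), and Myc by 1.19 (named after its value was seen). The MAX dimerisation genes diverged, with Mxd1 at 1.88 and Mxd4 falling from 104 and 101 to 19.8 and 16.4 CPM (-2.50), and Mycn fell by 2.26. Ribosomal protein genes shifted little (19 of 30 higher, 3 lower, 8 not called, median 0.12), with Rpl15 at 0.37, Rps2 at 0.30 and Rpl5 at 0.26. Their count rests on 1 library and on the scaling: without mixture replicate 1, and with library totals alone, 12 were higher and 5 lower.

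Cell cycle genes were divided, 15 of 39 higher, 19 lower and 5 not called, with a median of -0.03. Cdkn1a, which encodes the cell cycle inhibitor p21, rose from 63.7 and 59.6 to 480 and 476 CPM (2.96 ± 0.06, adjusted p = 1.02e-26). The inhibitors Cdkn2c (106 and 111 to 38.9 and 35.4 CPM, -1.54) and Cdkn1b (-1.14) and the transcription factor gene E2f2 (249 and 263 to 118 and 117 CPM, -1.13) fell. Mki67, the proliferation marker Ki-67, fell from 1597 and 1567 to 835 and 861 CPM (-0.90 ± 0.04, adjusted p = 1.16e-18), and it was below IL12 (-0.43, adjusted p = 1.33e-10) and DRIL18 (-0.41, adjusted p = 2.08e-10). The mitotic cyclin gene Ccnb2 fell by 0.97 (named after its value was seen). Among survival and death genes 13 of 26 were higher, 6 lower and 7 not called (median 0.11). The inflammatory caspase gene Casp4 (14.1 and 12.9 to 62.1 and 64.9 CPM, 2.24), the death receptor gene Tnfrsf10b (2.14), and the anti-apoptotic genes Birc3 (1.78) and Bcl2l1 (63.4 and 66.6 to 216 and 220 CPM, 1.75) rose, and Ripk3, a kinase of necroptosis, fell by 1.06.

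Genes at least 2-fold higher held 3.23% and 3.26% of the Mock counts and 10.2% and 10.2% of the mixture counts, and genes at least 2-fold lower 7.54% and 7.58% against 2.69% and 2.65%. Both shares describe the genes picked for their change. After Ifng, the largest gain was in Furin, a protease that cleaves precursor proteins, which rose from 76.2 and 74.9 to 3682 and 3898 CPM (5.65 ± 0.05, adjusted p = 7.87e-38). With IL12 it was already at 2263 and 2346 CPM, and the mixture stood above that by 0.72 (adjusted p = 5.04e-17). Gapdh (2579 and 2620 to 5562 and 5659 CPM, 1.11), Pkm (1.25), Ldha (1.22) and Eno1 (1.00), all glycolytic enzymes, the heat shock protein gene Hsp90ab1 (0.75), Il2ra and Npm1 were also among the 10 largest gains. The remaining one, ENSMUSG00000119584, has no symbol in the name table, and its mixture libraries stood apart at 3977 and 2419 CPM (Mock 972 and 1102 CPM, 1.62 ± 0.22, adjusted p = 1e-07). Its libraries also differed within other groups, at 1424 and 622 CPM in NoEp, 1712 and 2761 with DRIL18 and 1982 and 2712 with IL12.

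The 10 largest losses in reads included cytoskeletal genes. Myh9, non-muscle myosin, fell from 2130 and 2143 to 1012 and 1002 CPM (-1.09 ± 0.04, adjusted p = 7.65e-22), the GTPase regulator genes Arhgap45 from 1284 and 1277 to 451 and 440 CPM (-1.52) and Arhgef1 from 1346 and 1367 to 603 and 610 CPM (-1.16), and Coro1a, an actin-binding protein of leukocytes, by 0.78. Actb, which encodes β-actin, fell by 0.19, the mitochondrial gene mt-Co1 by 0.29 (9039 and 9541 to 7222 and 7922 CPM) and the elongation factor gene Eef1a1 by 0.17, and Itgb7, Mki67 and Gzmb complete the 10 largest losses. Arhgap45, Arhgef1, Myh9 and Coro1a were each lower in the mixture than with IL12 or DRIL18, whereas Actb did not pass against DRIL18 (0.02, adjusted p = 0.567).

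**Figure D5:**
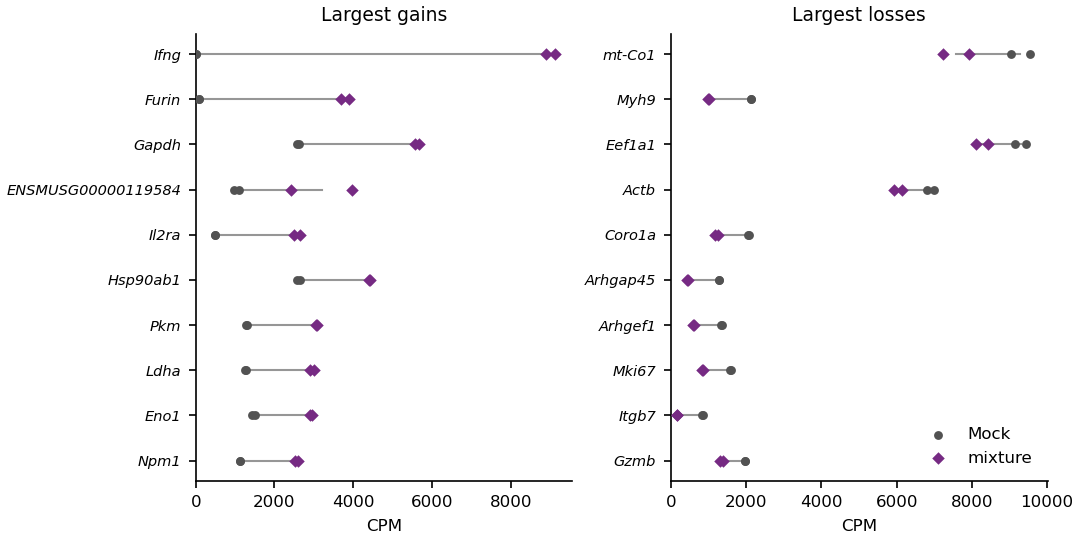
The 10 genes with the largest gain (left) and loss (right) in mean CPM between Mock (circles) and mixture (diamonds), with 2 points per group and a grey line joining the means. Ifng goes from 0.906 and 1.43 CPM to 8882 and 9109 CPM, and mt-Co1, Eef1a1 and Actb lose little of their Mock level.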

How the data were processed

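RNA of pmel-1 T cells was sequenced after a stranded mRNA library preparation, per the labels' protocols. STAR 2.7.9, featureCounts, edgeR and limma and the build mm39 are named in the submitters' processing notes. The sources used here give no annotation release, strand setting or handling of multi-mapping reads, so reads of overlapping or similar genes may be misassigned. The authors deposited raw counts per Ensembl identifier and a table of log2 CPM values for 13225 genes, and the deposited log2 values equal limma's voom transform of the deposited counts (largest difference 5e-14). Symbols came from a name table that matched 52083 of 55359 identifiers.

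Counts were tested with edgeR 4.0.16 (R 4.3.3), using filterByExpr, TMM scaling and the quasi-likelihood F test, with 5 group means over all 10 libraries (5 residual degrees of freedom) and Benjamini-Hochberg adjustment over all tested genes. All adjusted p-values come from that fit, and log2 fold changes are mixture minus Mock unless another group is named. Errors after ± (SE) are approximate standard errors, the absolute log2 fold change divided by the square root of the F statistic. They can fall below the counting error, and not only where a group has very few counts. By counts in Mock this holds for Gm49751 (9 and 6), Csf2 (16), Cxcl10 (35), Il10 (65), Ifng (80), Tnfrsf25 (97) and Il18 (127). By counts in the mixture it holds for Cdh1 (6), Itgae (156) and Ifi208 (188). For these genes the printed error is too small. CPM are counts per 1e6 counts after TMM scaling. A gene was called at an adjusted p under 0.05, and glmTreat tested for more than 1.5-fold. Where a group had 0 counts, 3 counts over the group were set in its place to give a lower bound, and for 1 to 3 counts the ratio has an exact 95% interval that covers counting error only. With 2 libraries a group, an exact permutation test over single genes cannot pass 0.05.

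Genes were named by rule: the 10 largest and 10 smallest fold changes at 5 CPM or more with groups that do not overlap, the 10 largest gains and losses in CPM, up to 4 leading members of each list with both directions shown, and a set of fixed genes. A few genes that the rule names are not reported here. Others, marked where they stand, were chosen by role after their values were seen. The members and all 27 programme and 9 marker lists were chosen with earlier results of these data known. Promoter windows were taken from RefSeq. The pipeline was run on simulated counts in which only a small part of the genes was changed. In these data 63.9% of tested genes were called, so that run cannot show how scaling or error control behaves here. Alternatives were DESeq2 1.42.0, limma 3.58.1, other scalings and filters, other sets of libraries, a replicate block, and the mark "bis" as a term.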

Additional observations from a re-analysis of the deposited data

How the results depend on the processing

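The 10081 calls became 8863 with DESeq2, 10070 with RLE factors, 10059 with library totals, 10047 with no filter, 10058 with limma-voom, 9488 from the authors' log2 values, 10122 from the 4 libraries alone and 9015 to 9131 when 1 library was left out. With the replicate block they were 10051. The labels do not say whether replicate numbers mark paired samples. The correlation of deviations between Mock and mixture was -2e-04 over all tested genes. It rests on 1 difference per group, with low-count genes included, so it cannot show whether the samples were paired. The block is used only as a number shared by libraries. Library totals lowered the median of all genes by 0.0576 (log2), and 45.1% of calls were then higher, against 50.1%. Both mixture columns and neither Mock column carry the mark "bis", whose meaning is not given. The mark differs within a group only in DRIL18 and IL12, so a term for it rests on the differences between the libraries of those groups. Whether the same shift holds for the mixture libraries was not tested. With the mark as a term 8486 genes were called. Ccr3 (adjusted p = 0.193) and Serpinb9b (0.702) were not called then, nor was Il22 (adjusted p = 1), although its fitted fold change stayed at 13.12, and Il12rb1 had 0.0109 (adjusted p = 0.8871), the opposite sign to its -0.02. Actb against DRIL18 was 0.02, but -0.0395 with library totals and -4e-04 to 0.0531 when 1 library was left out. Oxidative phosphorylation genes called lower numbered 7 with library totals, against 2. With 2 libraries a group, the spread rests on all 5 groups together, and genes under 1 CPM have the widest errors.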

Other observations

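Genes around Ifng, chosen after their values were seen, differed in how far they moved. The predicted gene Gm49751, an unconfirmed gene model listed beside Ifng, had 9 and 6 counts in Mock and 9051 and 8704 in the mixture (10.21 ± 0.11, adjusted p = 2.53e-34). With IL12 it had 1258 and 1307 counts, and so stood in the same order as Ifng. Ifng itself had 304222 and 307186 counts in the mixture, and whether misassigned Ifng reads add to those of Gm49751 was not tested. Mdm1, a microtubule-binding protein gene at the far side of Il22, rose from 19.7 and 20.8 to 37.6 and 37.1 CPM (0.88 ± 0.07, adjusted p = 1.2e-12). Ifngas1, a noncoding RNA gene on the other side of Ifng, rose from 5.38 and 5.74 to 11.7 and 11.4 CPM (1.06 ± 0.10, adjusted p = 2.24e-10). With IL12 alone Ifngas1 stood higher, at 53.1 and 52.7 CPM, so its order between IL12 and the mixture was the reverse of that of Ifng.

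Matrix genes chosen in the same way were near 0 in Mock. Mmp13 and Mmp10, secreted matrix proteases, had 0 Mock counts and reached 6.22 and 6.29 CPM and 4.82 and 4.86 CPM in the mixture, at least 144-fold and at least 111-fold higher. Timp3, an inhibitor of such proteases, had 3 Mock counts and 16.6 and 17.4 CPM in the mixture (ratio 391, 95% counting interval 133 to 1896).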
